A study of Drosophila melanogaster with 3 samples.

Results

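Intergenic pb-GFP peaks were taken from a ChIP-seq (chromatin immunoprecipitation and sequencing) map of proboscipedia (pb) binding in whole Drosophila melanogaster embryos. They were the dm6 peaks whose summit, the position of strongest signal, lay more than 1000 bp from all protein-coding start sites and not inside the body of any such gene. The rule uses position alone. It chose 301 of the 2740 peaks that the authors had thresholded on the irreproducible discovery rate, or 11.0% (exact 95% interval 9.84 to 12.2). Another 1733 summits lay in promoters, meaning within 1000 bp of a protein-coding start site, 666 in introns and 40 in exons. Transgenic embryos of mixed sex, 0 to 24 h old, carried pb with a C-terminal fusion to green fluorescent protein (GFP). Chromatin was recovered through the GFP, by antibody, after sonication to fragments of 200 to 800 bp, and 3 biological replicates form a single group with no contrast between conditions. Neither a control nor embryos without the fusion were analysed here, so recovery that depends on pb-GFP cannot be told apart from recovery that does not. Whole embryos mix all tissues, and the cells in which a peak was bound are not known. Peaks are named here by their rank in the thresholded list by the authors' signal value, where rank 1 is the strongest of 2740.

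The Antennapedia complex contains pb, a Hox gene whose protein is a homeodomain transcription factor needed for the adult mouthparts. Hox proteins bind short AT-rich sites, often together with the cofactors Extradenticle and Homothorax. Intergenic sequence in flies holds enhancers, insulators and the genes of noncoding RNAs, among them the long primary transcripts from which microRNAs (miRNAs) are cut. A miRNA recognises its target messages mainly through its seed, the bases at positions 2 to 8.

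The sequences below are from intergenic peaks on which later values turn: the strongest, 1 in a gap with many peaks, and those at starts of noncoding RNA genes. Each is the reference sequence of 201 bases centred on the summit, taken from the + strand of dm6 (RefSeq Release 6). Capitals mark matches, on either strand, to GAGAG (the core of GAGA factor sites), GCCAT (the core of Pleiohomeotic sites) or GGTCACACT (a core promoter element), and the windows at CR31840 and CR43626 hold none of these. The first is the strongest intergenic peak, upstream of tara (chr3R:16222403-16222603). The next lies 21 bp inside the long noncoding RNA gene CR31840 (chr2L:14023978-14024178). The third lies 101 bp upstream of CR31044, which holds mir-279 and mir-996 (chr3R:29214361-29214561). The fourth is the strongest between RFeSP and chinmo (chr2L:1638719-1638919). The fifth lies inside CR43626, which holds mir-282, and 304 bp upstream of an annotated internal start of that gene (chr3L:3250190-3250390). The others lie 379 bp upstream of the mir-275 hairpin (chr2L:7425316-7425516), 35 bp inside the small nuclear RNA gene snRNA:U1:95Ca (chr3R:23859495-23859695), and inside CR43334, the primary transcript gene of bantam, 8 bp past an annotated start (chr3L:628378-628578).
rank 12 tara: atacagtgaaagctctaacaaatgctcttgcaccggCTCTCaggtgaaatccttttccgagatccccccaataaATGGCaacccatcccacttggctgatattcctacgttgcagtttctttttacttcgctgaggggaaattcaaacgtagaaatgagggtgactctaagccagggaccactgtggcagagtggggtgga
rank 40 CR31840: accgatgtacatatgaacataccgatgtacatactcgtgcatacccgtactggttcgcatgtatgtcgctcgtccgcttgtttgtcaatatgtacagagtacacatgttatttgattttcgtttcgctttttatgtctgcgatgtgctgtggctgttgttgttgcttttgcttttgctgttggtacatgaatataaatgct
rank 56 CR31044: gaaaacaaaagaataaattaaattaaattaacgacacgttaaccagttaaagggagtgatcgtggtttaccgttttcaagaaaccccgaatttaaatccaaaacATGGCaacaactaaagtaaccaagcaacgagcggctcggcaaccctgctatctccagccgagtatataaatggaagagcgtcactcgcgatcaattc
rank 75 chinmo: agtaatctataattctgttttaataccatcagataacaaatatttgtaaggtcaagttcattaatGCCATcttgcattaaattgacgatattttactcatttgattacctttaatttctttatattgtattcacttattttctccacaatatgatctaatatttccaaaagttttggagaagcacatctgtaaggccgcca
rank 261 CR43626: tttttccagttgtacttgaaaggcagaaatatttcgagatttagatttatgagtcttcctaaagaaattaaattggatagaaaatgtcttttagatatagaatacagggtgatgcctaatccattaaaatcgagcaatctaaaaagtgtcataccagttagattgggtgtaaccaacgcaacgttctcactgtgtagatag
rank 1212 mir-275: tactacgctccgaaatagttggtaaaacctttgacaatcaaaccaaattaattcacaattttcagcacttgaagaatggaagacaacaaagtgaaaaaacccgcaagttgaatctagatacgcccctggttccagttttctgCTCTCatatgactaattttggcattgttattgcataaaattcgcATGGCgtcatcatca
rank 1410 U1: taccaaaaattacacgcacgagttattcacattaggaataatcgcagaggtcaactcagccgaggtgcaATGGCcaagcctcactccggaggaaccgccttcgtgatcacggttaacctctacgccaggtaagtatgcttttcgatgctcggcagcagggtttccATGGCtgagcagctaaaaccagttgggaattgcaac
rank 1673 CR43334: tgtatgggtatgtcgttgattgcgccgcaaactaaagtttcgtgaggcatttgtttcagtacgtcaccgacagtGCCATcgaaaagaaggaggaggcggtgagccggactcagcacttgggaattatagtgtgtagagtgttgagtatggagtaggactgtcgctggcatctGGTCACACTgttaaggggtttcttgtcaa

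Mature miRNAs of the genes in that set are printed with the seed in capitals, in the RefSeq annotation's product names.
mir-279-RA: uGACUAGAuccacacucauuaa
mir-996-RA: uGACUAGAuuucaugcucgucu
mir-282-RA: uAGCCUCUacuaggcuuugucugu
mir-275-RA: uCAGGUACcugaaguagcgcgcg
mir-ban-RA: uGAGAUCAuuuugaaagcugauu
mir-279 and mir-996, which share the transcript gene behind the rank 56 peak, also share their seed. The other 3 seeds differ from it and from each other.

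The strongest intergenic peak was that at rank 12, in the gap between mtSSB and tara, with its summit 3148 bp upstream of tara, a regulator of cell fate and of sleep. It held ranks 6, 13 and 16 in the lists of replicates 1 to 3, a mean rank of 11.7 ± 5.13 (SD, n = 3). A neighbour at rank 63 lay 1141 bp upstream of tara and held ranks 105, 69 and 36. The peak at rank 13 lay on X, 1626 bp from CG4004 and 5625 bp from Paics, inside the long noncoding RNA gene Vinr, and held ranks 21, 14 and 8. The peak at rank 45 in the same gap, inside CR44619, held ranks 54, 48 and 40. All 4 of these peaks were within the strongest 105 of every library.

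The next 5 peaks outside those gaps had varied neighbours. The peak at rank 17 lay in the gap between Su(z)2, a Polycomb group gene, and CG13323, 27431 bp and 9353 bp from them, and held ranks 23, 16 and 18. The peak at rank 25 lay between RYBP, which encodes a protein that binds Polycomb repressive complexes, and Ppa, and held ranks 22, 40 and 21. The peak at rank 40 lay between NimC3, a gene of the Nimrod family of immune receptors, and hll, and held ranks 26, 78 and 22. That at rank 47 lay between the ends of blw and CycB, the cyclin B gene, 804 bp and 537 bp from them, and held ranks 46, 37 and 67. That at rank 56 lay 5711 bp upstream of eEF1gamma, a translation elongation factor gene, with Cyt-c1L on the other side, and held ranks 77, 57 and 41. The nearest of these 5 summits to a protein-coding start site was that at rank 40, at 2923 bp.

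The other peaks among the 15 strongest intergenic ones included a pair between RFeSP and chinmo. The stronger of that pair, at rank 75, held ranks 142, 70 and 52 in replicates 1 to 3, and the other, at rank 110, held 167, 97 and 95. Between CG43131 and RabGGTa lay rank 92, with 106, 66 and 174 in the libraries. Between Atg13, an autophagy gene, and stck lay rank 98, with 116, 108 and 66. The library ranks were least even at rank 120, between CG3149 and AdamTS-B, with 72, 106 and 352. The last of the 15, rank 138, lay on chromosome 4 between dati and lgs, a gene of Wnt signalling, with ranks 197, 133 and 141.

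Intergenic peaks were recovered in the libraries about as often as other peaks. A summit within 100 bp stood in all 3 replicate lists of 30000 regions for 268 of the 301 (89.0%, exact 95% interval 84.9 to 92.3), against 88.4% of all thresholded peaks. A further 30 were matched in 2 lists and 3 in 1 list. Among the 2740 highest ranked peaks of all 3 libraries stood 134 of the 301 (44.5%), against 46.7% of all thresholded peaks. Per library, 94.0%, 98.0% and 96.0% of intergenic peaks were matched in replicates 1 to 3, a mean of 96.0% ± 1.99, against 95.6% ± 1.75 of promoter peaks and 96.3% ± 1.54 of intron peaks (SD, n = 3 each). The thresholded list was called on the same libraries together, so that recovery is no independent check.

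Ranks did not set intergenic peaks apart from the other classes beyond the spread of the libraries. Their median rank was 1437, 1404 and 1748 in replicates 1 to 3, a mean of 1530 ± 190, against 1352 ± 59.0 for promoter peaks and 1435 ± 138 for intron peaks (SD, n = 3 each). The intergenic median was weaker than the promoter median in all 3 libraries, by 152, 7 and 375 ranks (mean 178 ± 185, 2-sided exact sign-flip permutation p = 0.25). Against introns the difference was 94.3 ± 196 ranks, with opposite signs among libraries (2-sided exact permutation p = 0.5). The smallest p that 3 libraries allow in this test is 0.25, so it cannot reach 0.05. Of the 100 strongest thresholded peaks 12 were intergenic, and of the 500 strongest 52.

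**Figure D1:**
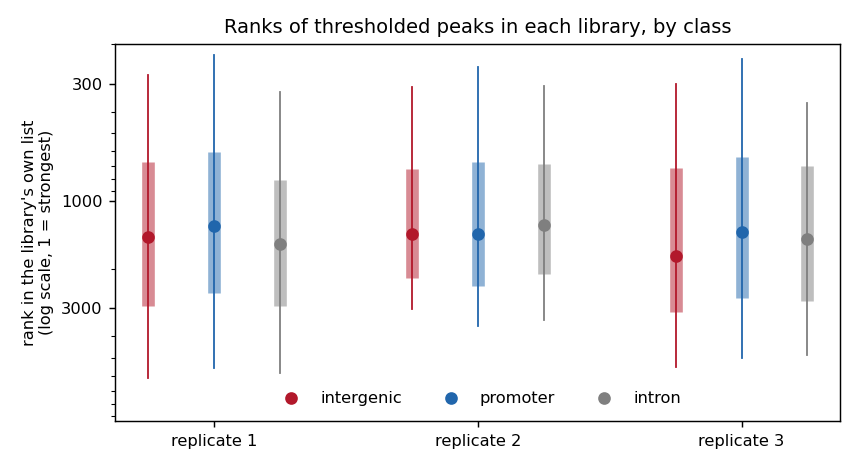
Ranks of thresholded peaks in each library's own list (log axis, rank 1 at the top) for the intergenic, promoter and intron peaks matched in that list. Points are medians, thick bars run between the quartiles and thin lines between the 10th and 90th percentiles; the intergenic medians of 1437, 1404 and 1748 lie within the quartile bars of both other classes.

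The intergenic share grew as the lists went down to weaker regions. It was 10.4% at combined ranks 1 to 500 (exact 95% interval 7.87 to 13.4), 11.2% at ranks 1371 to 2740, 13.7% at ranks 5001 to 10000 and 19.4% at ranks 20001 to 30000 (18.6 to 20.1). Below the threshold the combined list held 4603 intergenic regions among 27260 (16.9%), which are called weaker intergenic regions here. Among the 2740 highest ranked peaks the libraries gave 295, 331 and 292 intergenic summits, a mean of 11.2% ± 0.792 (SD, n = 3).

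Intergenic peaks lay near starts of noncoding RNA genes more often than weaker intergenic regions did. Of the 301 summits, 66 (21.9%, exact 95% interval 17.4 to 27.0) lay within 1000 bp of a noncoding start, against 12.3% of the weaker intergenic regions and 6.67% of all intergenic bases that the rule admits. Over all intergenic regions of the combined list, thresholded or weaker, the share was 12.9%. In each library's own list the same share was 21.0%, 20.2% and 22.9% among its 2740 highest ranked peaks, a mean of 21.4% ± 1.39, against 12.2% ± 1.04 among its weaker intergenic regions (SD, n = 3 each). The difference of 9.21 ± 0.749 percentage points had the same sign in 3 of 3 libraries (2-sided exact sign-flip permutation p = 0.25, the smallest possible). Inside a noncoding gene lay 57 summits (18.9%), against 11.3% of weaker regions, and 91 (30.2%) were near a start or inside.

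Of these 66 peaks, 58 had a long noncoding RNA (lncRNA) gene as the nearest noncoding start, 2 an antisense RNA gene and 6 a gene of a small RNA. The median distance was 324 bp, 24 lay within 200 bp, and 31 lay upstream. With no test made, their median rank was 1363.5, against 1424 for the other 235. All 3 replicate lists held 84.8% of them and 90.2% of the others. Besides those already described, the strongest at lncRNA genes were rank 120 (550 bp upstream of CR42794), rank 143 (inside CR44810, 178 bp upstream of an annotated start, between betaTub60D and slbo, a gene of border cell migration), rank 182 (inside CR44917, 181 bp past an annotated start, between tsh and CG11629) and rank 261 at CR43626. Their 3 library ranks were 304, 107 and 133 for rank 143, 133, 192 and 258 for rank 182, and 556, 156 and 451 for rank 261.

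**Figure D2:**
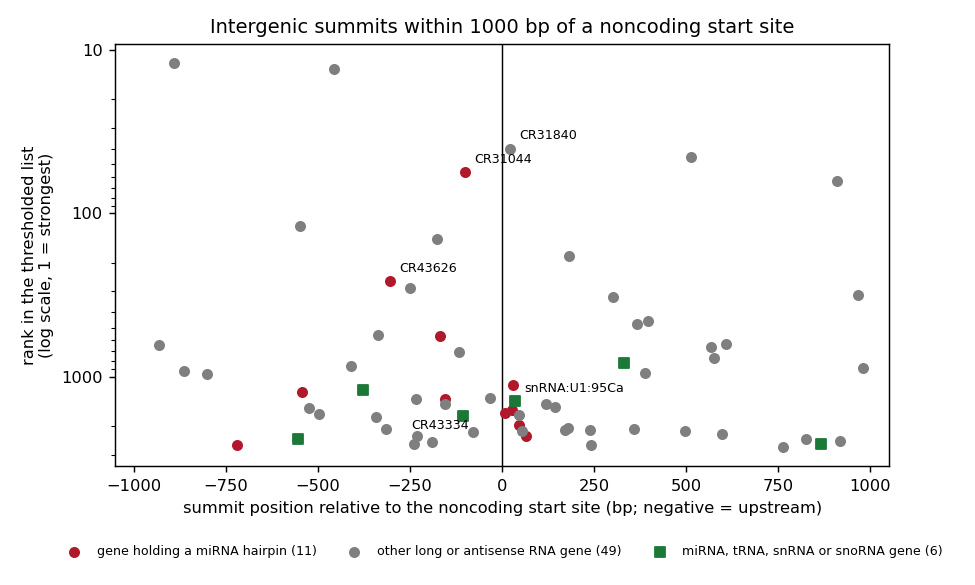
Position of the 66 intergenic summits near a noncoding start (x, bp, negative upstream) against rank in the thresholded list (y, log axis, rank 1 at the top). Red points are at genes that hold a miRNA hairpin (11), grey points at other long or antisense RNA genes (49) and green squares at miRNA, tRNA, snRNA or snoRNA genes (6).

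Genes that hold a miRNA hairpin had an intergenic peak at their start more often than other lncRNA genes. A lncRNA or antisense RNA gene was counted as a miRNA host where an annotated hairpin lies inside it on the same strand, a comparison chosen after the data were seen. Of the 28 host genes with a start that the rule admits, 10 had an intergenic peak within 1000 bp (35.7%, exact 95% interval 18.6 to 55.9), against 42 of 1100 lncRNA genes without a hairpin (3.82%, 2.77 to 5.13) and 4.39% of all 1502 noncoding genes with such a start. For weaker regions the shares were 67.9% of host genes and 34.5% of the other lncRNA genes. The count is per gene, so a gene with more annotated starts has more chances to be counted. Neither the number of starts nor gene length was matched between the sets, and their part in these shares was not tested. Host starts took 3.73%, 2.72% and 3.42% of the highest ranked intergenic peaks of replicates 1 to 3, a mean of 3.29% ± 0.518, against 0.687% ± 0.0590 of the weaker intergenic regions (SD, n = 3 each). The difference of 2.60 ± 0.472 percentage points had the same sign in 3 of 3 libraries (2-sided exact sign-flip permutation p = 0.25, the smallest possible). These counts rest on 11, 9 and 10 peaks a library.

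**Figure D3:**
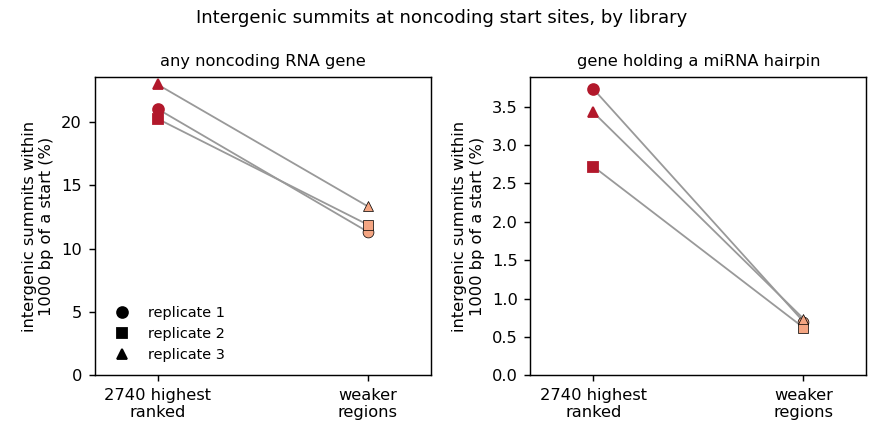
Share of intergenic summits within 1000 bp of a noncoding start (left, any noncoding gene; right, genes that hold a miRNA hairpin) for the 2740 highest ranked peaks and the weaker regions of each library's list. Each marker is a library and lines join values of the same library; all 3 lines run downward in both panels, from means of 21.4% and 3.29% among the highest ranked peaks.

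The 10 host genes were CR31044 (mir-279 and mir-996, best rank 56), CR43626 (mir-282, rank 261), CR43650 (mir-8, rank 565), CR43314 (mir-bft, rank 1118), CR45345 (mir-375, rank 1234), Hsromega (mir-4951, rank 1363), CR43651 (mir-14, rank 1596), CR43334 (bantam, rank 1673), CR42651 (mir-10, rank 1971) and CR44206 (mir-184, rank 2306). At 8 of them the nearest summit lay within 200 bp of an annotated start, which may be an internal one, while 14 of the 42 other lncRNA genes with a peak had it so close. mir-279 and mir-996 act in the specification of sensory cells, mir-8 is the fly member of the miR-200 family, bantam promotes tissue growth and blocks cell death, and mir-14 also limits cell death. Hsromega is the heat shock RNA that organises nuclear omega speckles. mir-10 lies in the Antennapedia complex, and its peak, between Dfd and Scr, was 46 bp inside CR42651 with library ranks of 2339, 3727 and 1696. All 10 starts had weaker regions nearby as well.

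The peaks at these host starts varied between libraries. CR43650 had 2 peaks, so the 10 genes account for 11 peaks, of which 8 (72.7%) were in all 3 replicate lists and 3 were among the highest ranked peaks of all 3 libraries. The CR31044 peak held ranks 77, 57 and 41. At mir-8 the stronger peak held 927, 579 and 401, and at bantam the start held 1437, 5805 and 585. The mir-375 peak held 781 and 827 in replicates 1 and 2 but 10488 in replicate 3. The CR43314 and Hsromega peaks had no match in replicate 3, and the mir-14 peak was matched in replicate 3 only.

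Around the hairpins themselves, 92 of which lie outside protein-coding genes, 6 had an intergenic summit within 1000 bp, 14 within 5000 bp and 16 within 10000 bp. In 15 of these 16 cases the nearest summit was upstream of the hairpin. Many of the 16 lie in the host genes named above, whose first start is upstream of the hairpins inside them. The direction therefore partly follows from the peaks at host starts. All 92 hairpins, which include the 16, had the nearest summit upstream in 58 cases. They reach summits up to 1906548 bp away and are no baseline. The nearest were mir-275 (379 bp) and mir-305 (556 bp), which share a summit at rank 1212, mir-375 (681 bp), mir-282 (732 bp), mir-14 (890 bp) and mir-8 (912 bp). mir-9a, which keeps the number of sensory precursors in check, had a summit 4338 bp upstream, at rank 453 with 872, 309 and 565 in the libraries. mir-277 and mir-34 shared a summit at rank 1872, 1808 and 2722 bp upstream. Hairpins of 1 transcript share their summits and are not independent.

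The 6 peaks nearest to small RNA genes were of middling to low rank. They lay at snRNA:U1:95Ca (35 bp, rank 1410), tRNA:Ala-TGC-2-1 (332 bp, rank 824), tRNA:Leu-CAA-2-2 (555 bp, rank 2395), snoRNA:185 (106 bp, rank 1740), mir-275 (379 bp, rank 1212) and mir-92b (867 bp, rank 2595). The U1 RNA recognises the 5′ splice site, and the peak at its gene held ranks 1178, 1768 and 2460. For miRNAs annotated as genes the start is that of the hairpin and not of the transcript. Copies of U1 and tRNA genes are nearly identical, and how reads that fit several copies were placed is not given in the sources used here. A further lncRNA gene is named here after its values were seen. Its peak lay 156 bp upstream of flam, the piRNA cluster that silences transposons in the ovary, at rank 1478 with ranks 1196 and 1767 in replicates 2 and 3 and no match in replicate 1.

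Many intergenic peaks shared a gap between genes with another. They occupied 213 of the 4295 gaps in which the rule admits any base, and 140 of the 301 (46.5%) shared a gap with another. The median gap length over peaks was 18908 bp, against 22128 bp over weaker intergenic regions and 29490 bp over all intergenic bases of the rule, so peaks lay in shorter gaps than intergenic sequence does; these lengths were not tested. Another thresholded summit lay within 1000 bp of 7.64% of them, against 14.8% of promoter peaks and 13.1% of intron peaks, and within 2000 bp of 22.6%, against 23.9% and 25.7%. The rule keeps intergenic summits away from start sites, where most thresholded peaks lie, so the values at 1000 bp partly follow from it. The nearest other summit was at a median of 7912 bp.

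The gap between RFeSP and chinmo, 37097 bp on 2L, held 8 intergenic peaks. chinmo encodes a BTB zinc finger protein of neuronal temporal identity. Its 8 summits, from 1091 to 18399 bp upstream of chinmo or nearer to RFeSP, ran from rank 75 to rank 1975, and 7 were in all 3 replicate lists. CR43334, the bantam transcript gene, held 5 intergenic summits, at ranks 345, 536, 666, 1673 and 1875. The summit at rank 1673 lay at an annotated start of CR43334 and the others lay further inside it. The noncoding start nearest to those at ranks 345 and 536 belongs to another lncRNA gene, CR43423.

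Further gaps with several peaks were CG44362 to CG7560 (6 peaks), CG6168 to CG6163 (5), and NijA to CG43245, mtSSB to tara and CG4004 to Paics (4 each). Among gaps with 3 or more peaks, that from CG4004 to Paics was the most crowded by length, with 5.52 peaks per 10 kb, and the mtSSB to tara gap had all 4 within 2677 bp. The 11 gaps with 3 peaks included those beside aop, an ETS repressor of Ras signalling, SoxN, a neural Sox factor, noc, an appendage regulator, sty, an inhibitor of receptor tyrosine kinase signalling, and Act5C, an actin gene. The others lay between COX7AL2 and CG31668, CG4218 and CG3473, CG5953 and CG31816, CG42808 and CG6191, CG34460 and Ugt37C1, and hng3 and CG13898.

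**Figure D4:**
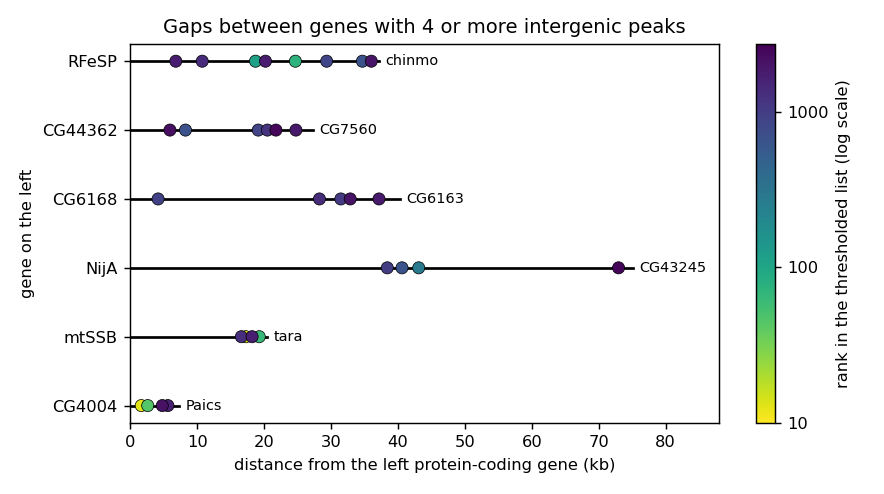
Intergenic summits along 6 gaps that hold 4 or more, each drawn from the gene on its left (x, distance in kb) to the gene on its right, with colour for rank on a log scale. The chinmo gap holds 8 summits spread over 29214 bp, while the 4 summits beside tara fall within 2677 bp.

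Genes of several patterning lists were frequent among the flanks of intergenic peaks. A protein-coding gene was counted where it borders the gap of a peak or has the nearest start, which held for 402 of 13968 genes, or 2.88%. It held for 5 of 8 Hox genes, 4 of 8 pair rule genes, 5 of 13 segment polarity genes, 4 of 14 gap and head genes, 3 of 11 genes of the EGF receptor pathway and 2 of 4 cell death inducers. Lists with smaller shares included neuroblast and proneural regulators (2 of 18), Notch genes (1 of 11), mesoderm and muscle regulators (1 of 15) and Hox cofactors (1 of 7). It held for 1 of 93 cytoplasmic ribosomal protein genes (RpS15Aa) and for none of 17 stress and immediate early genes. Neighbours shared peaks (Dfd with Scr, odd with sob, slp1 with slp2, rpr with skl) and ftz stood in 2 lists, so the counted genes are not independent. Long gaps offer more bases to peaks: the median of the longest gap beside a gene was 18942 bp for the Hox list and 23454 bp for the pair rule list, against 748 bp over all genes, and the part of gap length in these counts was not tested. pb itself bordered no intergenic peak.

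The Hox peaks were mostly weak. The best, rank 355, bordered abd-A, at 29238 bp from its start, and the others named by rank were Dfd and Scr (both rank 1971, the mir-10 peak) and Antp (rank 2085, 1622 bp upstream of a start, with 2952, 2936 and 1778 in the libraries). The rank 1971 peak lay 24497 bp from the start of Dfd and 32172 bp from that of Scr. ftz, the pair rule gene of the same complex, had rank 2353, at 17578 bp from its start. Of the Hox cofactor genes hth had rank 837, at 25526 bp from its start. Su(z)2 (rank 17) and Psc (rank 306) were the Polycomb genes, with summits 38219 bp and 22491 bp from their starts.

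Among segmentation genes the strongest was between slp1 and slp2, forkhead genes of head and segment patterning, at rank 169 and 4319 bp from slp2. ems and oc, head homeobox genes, followed at ranks 590 and 785. The pair rule genes were hry (rank 524), odd and sob (rank 1762 for both) and ftz. The segment polarity genes were mid (584), ptc, the Hedgehog receptor gene (1105), wg, the Wnt ligand gene (1482) and H15 (2174), and wg shares its peak with Wnt4. The best peak of each gene in this paragraph lay 4319 bp (slp2) to 25519 bp (wg) from that gene's start.

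Other lists gave fewer genes. The appendage genes were noc (rank 329, 4 peaks), disco and disco-r (1508 for both). The neural regulators were chinmo and pros (423), the axon guidance and adhesion genes robo2 (734) and caps (2130). CrebA (709) and vvl (1341) came from the salivary gland and tracheal list, and bin (1107) from the muscle list. sty (316), aop (976) and vn (1011) belong to the EGF receptor pathway, and E(spl)mbeta-HLH (1143) to Notch. The cell death inducers rpr and skl shared rank 2223, 4997 bp upstream of rpr, whose library ranks of 17522, 2028 and 1491 were far apart. Eip93F (1504) and Eip75B (2262) respond to ecdysone. The best peak of each gene in this paragraph lay 1460 bp (bin) to 114022 bp (vvl) from that gene's start. The distance was 59262 bp for pros, 58109 bp for disco, 39248 bp for caps and 36510 bp for skl. It was 1481 bp for aop, 1834 bp for CrebA and 2444 bp for robo2. Another gene had the nearest start at vvl, pros, disco, caps, skl, sty, vn and E(spl)mbeta-HLH.

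Intergenic peaks lay nearer to protein-coding start sites than intergenic sequence does. The median distance was 4737 bp (quartiles 2298 and 10740), against 5984 bp for weaker intergenic regions and 8634 bp for all intergenic bases of the rule. Within 2000 bp lay 61 of the 301 (20.3%), against 14.9% of weaker regions and 10.5% of bases, and in the farthest class, beyond 20 kb, lay 14 (4.65%), against 10.7% and 25.6%. Upstream of the nearest start lay 175 (58.1%). Gaps between a pair of starts held 98 peaks (32.6%), against 28.1% of weaker regions and 24.1% of bases, while gaps between a start and an end held 43.9%, against 49.1% and 52.1%. The farthest base was 730649 bp from a start, against 78869 bp for the farthest weaker region. Bases were not filtered for how well reads can be placed there. These shares describe positions and were not tested.

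**Figure D5:**
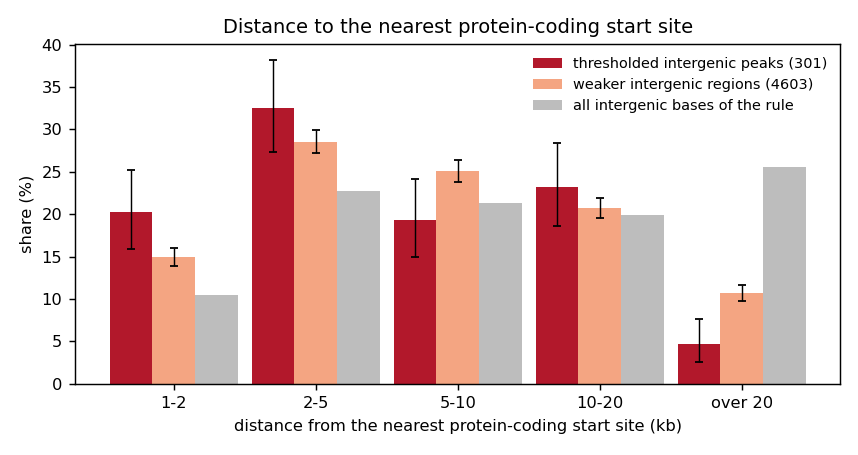
Share of intergenic peaks, weaker intergenic regions and all intergenic bases of the rule (y, percent) by distance from the nearest protein-coding start site (x, kb). Error bars are exact 95% binomial intervals over peaks or regions, and beyond 20 kb the peaks are at 4.65% where the bases are at 25.6%.

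The 5 farthest summits were 39739 bp from CG6414 on X (rank 2071), 36654 and 34455 bp from CG43245 (ranks 1010 and 645), 35742 bp from CG31797 in the gap that drl borders (rank 1335), and 32894 bp from corto (rank 2181). The peak farthest of all had no match in replicate 3, and that at rank 2181 lay 80 bp from the start of the lncRNA gene CR45588. At the edge of the rule, the nearest members were 1005 bp from RabGGTa, 1034 bp from ex and 1040 bp from CG34112. The nearest peaks left out were 1000 bp from CG43131, 995 bp from CG1142 and 977 bp from CG8517.

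Counts by arm were 70 peaks for 2L, 49 for 2R, 80 for 3L, 58 for 3R, 41 for X and 3 for chromosome 4. Per megabase of intergenic sequence that the rule admits this was 10.3, 7.07, 8.75, 7.96, 7.61 and 15.3, against 8.42 overall. The value for chromosome 4 rests on 3 peaks. None of the 301 summits lay in an annotated transposon, and such summits were rare in the other classes too (6 of 1733 promoter and 1 of 666 intron summits).

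Core promoter elements and an E-box were rarer at intergenic summits than at promoters in all 3 libraries. Each of 12 motifs was counted on both strands within 100 bp of the summits of the highest ranked peaks, and matches may overlap. TATCGATA, the DRE element of housekeeping promoters, was at 0.678%, 0.906% and 0.342% of intergenic summits in replicates 1 to 3, a mean of 0.642% ± 0.284, against 6.22% ± 0.323 of promoter summits (SD, n = 3 each). GGTCACACT was at 0.542% ± 0.176 of intergenic and 2.37% ± 0.330 of promoter summits. The rule keeps intergenic summits away from protein-coding start sites, so the lower shares of these 2 elements than at promoters partly follow from it. At intron summits both were rarer than at intergenic ones, TATCGATA at 0.155% ± 0.150 and GGTCACACT at 0.208% ± 0.110. These contrasts with introns rest on very few peaks. Of the 301 thresholded intergenic peaks, 3 had TATCGATA and 2 had GGTCACACT. For TATCGATA the difference from introns was 0.0435 percentage points in replicate 3, and over the libraries it was 0 among the top 1000 peaks. CAGCTG, an E-box, was at 4.90% ± 0.157 of intergenic summits, against 14.0% ± 1.52 of promoter summits, 8.96% ± 1.31 of intron summits and 8.03% ± 0.587 of windows centred 1000 bp to either side of the intergenic summits. Each of these differences had the same sign in all 3 libraries (2-sided exact sign-flip permutation p = 0.25, adjusted over 12 motifs 0.3 for promoters, 0.429 for introns and 0.667 for the flanking windows). The flanking windows, here and below, were not filtered by the rule, so some lie at promoters or inside genes. Of the 301 thresholded intergenic summits, 61 were within 2000 bp of a protein-coding start. The part of this in the flank values was not tested.

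GAGAG, bound by GAGA factor, was at 29.1% ± 0.395 of intergenic summits and at 20.4% ± 2.35 of the flanking windows, higher in 3 of 3 libraries (2-sided exact permutation p = 0.25, adjusted 0.667). It was at 29.4% ± 2.71 of promoter summits and 31.2% ± 4.36 of intron summits, and those differences changed sign between libraries. GCCAT was at 37.3% ± 3.63 of intergenic summits, against 31.0% ± 2.54 of promoter and 29.9% ± 2.06 of intron summits, higher in 3 of 3 libraries against each (2-sided exact permutation p = 0.25, adjusted 0.3 and 0.429). In the flanking windows it was at 34.6% ± 0.379. The values are SD over 3 libraries throughout.

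Motifs of Hox proteins and their cofactors differed in direction by motif and by the set they were compared with. TAATTA, the core that many homeodomain proteins bind, was at 10.3% ± 2.48 of intergenic summits, against 11.9% ± 1.82 of promoter summits, 13.5% ± 1.10 of intron summits and 13.1% ± 1.46 of flanking windows (SD, n = 3 each). TGATNNAT, the joint site of Extradenticle and Hox proteins, was at 13.0% ± 0.268, against 10.8% ± 1.05 of promoter summits, 10.7% ± 0.559 of intron summits and 13.9% ± 2.06 of flanking windows. TGACAG, a Homothorax site, was at 7.02% ± 1.38, against 7.98% ± 0.621, 6.64% ± 0.464 and 8.59% ± 0.819 of the same 3 sets. Against promoters and against introns, TAATTA was lower and TGATNNAT higher in 3 of 3 libraries (2-sided exact permutation p = 0.25, adjusted 0.3 and 0.429). TGACAG was lower than at promoters in 3 of 3 (2-sided exact permutation p = 0.25, adjusted 0.3) and changed sign against introns. Against the flanking windows TAATTA and TGATNNAT changed sign between libraries (2-sided exact permutation p = 0.5, adjusted 0.667), and TGACAG was lower in 3 of 3 (2-sided exact permutation p = 0.25, adjusted 0.667).

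Of the remaining motifs, CAGGTAG, the Zelda site, was at 1.20% of intergenic summits, against 0.743% of promoter, 1.79% of intron and 1.20% of flanking windows. GATAAG, a site of GATA factors, was at 8.39%, against 10.4%, 9.75% and 8.37%. TGANTCA, a site of AP-1 factors, was at 5.93%, against 4.08%, 6.40% and 5.27%, and CACGTG, another E-box, was at 2.08%, against 3.39%, 2.26% and 3.11%. The median G and C content was 39.5% ± 2.07 at intergenic summits, against 41.1% ± 2.01 at promoters, 38.3% ± 1.32 in introns and 42.1% ± 0.574 in the flanking windows, with the same sign in 3 of 3 libraries for each difference (2-sided exact permutation p = 0.25). With 200 bp to either side of the summit the intergenic content was instead 0.416 percentage points above promoters and 0.0831 above the flanking windows. Of the 301 thresholded intergenic peaks, 87 had GAGAG, 106 had GCCAT, 36 had TAATTA, 35 had TGATNNAT and 3 had TATCGATA. A match to letters is a description and does not show that a factor binds there.

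Among intergenic summits, those near a noncoding start were set against the others, a comparison chosen after the data were seen. TGANTCA was at 2.03% ± 0.829 of summits near a noncoding start, against 7.00% ± 1.504 of the others, and TAATTA at 7.13% ± 0.584, against 11.1% ± 2.99 (SD, n = 3 each). GCCAT was at 43.0% ± 6.43 of summits near a noncoding start, against 35.7% ± 2.95 of the others. Each of the 3 differences had the same sign in 3 of 3 libraries, as did 7 of the 12 motifs (2-sided exact permutation p = 0.25, adjusted over 12 motifs 0.429). The summits near a noncoding start numbered 62, 67 and 67 in replicates 1 to 3, so the TGANTCA and TAATTA shares there rest on very few peaks. Of the 66 thresholded peaks near a noncoding start, 1 had TGANTCA (1.52%, against 6.38% of the others). Of the same 66, 6 had TAATTA (9.09%, against 12.8%) and 26 had GCCAT (39.4%, against 34.0%).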

How the data were processed

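Peak lists of 3 ChIP-seq libraries were used, all from pb-GFP embryos. The authors deposited on dm6 1 ranked list per replicate and 1 for the combined alignments, each with 30000 peaks and background regions, and a list thresholded on the irreproducible discovery rate, per the deposited notes. The deposited signal value has no stated statistic, so only its order within each list was used. The deposited −log10 q is at its largest value in all 2740 thresholded peaks and was not used to rank. Caller and aligner: not given in the sources used here. Read depth is unknown, so intervals (exact Clopper-Pearson, 95%) cover counting error over peaks only. The dm3 lists and the control were not analysed here.

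Summits were placed with the Ensembl release 115 annotation (BDGP6.54) and the RefSeq Release 6 sequence. Start sites are those of all annotated transcripts, and peaks matched when summits lay within 100 bp. Classes were compared over libraries by a 2-sided exact sign-flip permutation test, with Benjamini-Hochberg adjustment over 12 motifs, and scripts (Python 3.11.15, scipy 1.17.1) were tested on simulated data. Genes were named by rule: flanks of the 15 strongest intergenic peaks, every peak at a small RNA gene and the 10 strongest at other noncoding genes, gaps with 3 or more peaks (1 such gap is not reported here), up to 4 genes per list (19 lists), and the 5 farthest peaks. The members and lists were chosen with earlier results of these data known. Alternatives were other windows, matching distances, list depths and the stronger 1370 peaks, and leaving out each replicate. Replicates are labelled biological.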

Additional observations from a re-analysis of the deposited data

How the results depend on the processing

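The 301 peaks became 148 among the stronger 1370 of the list. The share near a noncoding start was 14.95% with a window of 500 bp and 33.9% with 2000 bp, and 20.9% to 23.3% when each replicate was left out. The higher share than in weaker regions stayed between 8.98 and 9.64 percentage points without each replicate, and at miRNA hosts between 2.39 and 2.86. Differences in recovery that are small turned sign. Intergenic minus promoter recovery in the lists, 0.437 percentage points, was -0.219 with matches within 50 bp, -0.0764 with a start window of 2000 bp, -0.250 in the stronger 1370, and 0.0525 to 0.818 without each replicate. Recovery in the highest ranked peaks, -0.756 against promoters, was 0.345 in the top 5000 and -3.83 to 0.827 without each replicate; against introns, -0.531, it was 0.170 and -1.92 to 0.962. The median rank difference from introns was -50.7 in the stronger 1370. With 200 bp to either side, G and C content was 0.416 percentage points above promoters and 0.0831 above the flanks. Small motif differences also turned sign, in percentage points. Against promoters, TGACAG was 0.507 (200 bp), 0.0906 (top 1000) and 0.534 (top 5000), and GAGAG was 1.67 (200 bp), 2.57 (top 1000) and -1.36 to 1.12 without each replicate. Against introns, TGACAG was -0.145 to 1.08 without each replicate, CAGGTAG 0.555 (top 1000) and CACGTG -0.475 to 0.389 without each replicate. Against flanks, CAGGTAG was 0.316 (50 bp), 0.429 (200 bp), 1.40 (top 1000), 0.433 (top 5000) and -0.0940 to 0.161 without each replicate; TATCGATA -0.780 (top 1000); GATAAG -1.14 (top 1000), -0.171 (top 5000) and -1.17 to 1.05 without each replicate; and TGANTCA -0.607 (50 bp), -0.946 (top 1000) and -0.111 to 1.44 without each replicate. The causes were not tested. Of 348 alternatives, 79 for main comparisons and 234 for single motifs and miRNA hosts kept their direction or fell to 0. Classes were compared within each library, so the tests are already paired by library, and there is no second group to block. With 3 libraries the sign-flip permutation test cannot go below 0.25.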

Other observations

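A word recurred when the windows of the intergenic peaks were read: CACTG, any 4 bases, then AAA. It was noticed in these windows, so its share there is a description. Counted on both strands, up to 100 bp from a summit, it was at 64 of the 301 intergenic peaks (21.3%), against 16 of the 602 windows centred 1000 bp to either side (2.66%). In the 2740 highest ranked peaks, library by library, it was at 15.9%, 22.7% and 14.4% of intergenic summits, a mean of 17.7% ± 4.40, against 6.05% ± 0.768 of promoter summits, 17.0% ± 1.97 of intron summits and 2.44% ± 0.633 of windows beside the intergenic summits (SD, n = 3 each). Intron summits held it about as often. At intergenic summits near a noncoding start it was at 10.2% ± 1.18, against 19.6% ± 5.33 at the others.

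The weaker intergenic regions, whose windows were not read, held the word more often the stronger they were. It was at 53 of 297 regions at combined ranks 2741 to 5000 (17.8%), 79 of 686 at ranks 5001 to 10000 (11.5%), 6.82% of 1685 at ranks 10001 to 20000 and 80 of 1935 at ranks 20001 to 30000 (4.13%). The windows 1000 bp to either side of the same regions held it at 2.86%, 2.62%, 2.31% and 2.71%, in the same order. The intergenic peaks held 78 copies, at a median of 58 bp from the summit in a search that reached 100 bp. Of these copies 31 (39.7%) lay within 50 bp, so they did not crowd towards the summit. Which protein, if any, binds the word is not known from these data.

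Printed here are 6 copies from 5 of the stronger intergenic peaks, to show how the word sits in its surroundings. Each is printed 5′ to 3′ on the strand that carries the word, with the fixed letters in capitals and 12 bases to either side, from the dm6 reference (RefSeq Release 6).
rank 45 (chrX:12752424-12752459, - strand): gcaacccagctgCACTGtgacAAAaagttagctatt
rank 92 (chr3R:5113179-5113214, + strand): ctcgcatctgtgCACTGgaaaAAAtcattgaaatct
rank 120 (chrX:5696571-5696606, - strand): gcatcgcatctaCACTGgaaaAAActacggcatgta
rank 169 (chr2L:3832418-3832453, + strand): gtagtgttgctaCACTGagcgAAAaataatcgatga
rank 169 (chr2L:3832567-3832602, - strand): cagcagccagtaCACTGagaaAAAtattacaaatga
rank 329 (chr2L:14502816-14502851, - strand): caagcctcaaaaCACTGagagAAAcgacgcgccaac
The peak at rank 169, between slp1 and slp2, carries a pair of copies on opposite strands.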
